A study of Mus musculus with 10 samples.

Results

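The BMP, TGF-beta, activin and Nodal pathway was followed through 38 genes, listed by symbol and matched to their Ensembl gene IDs. All 38 were found among the 36191 gene IDs of the count table. They comprise 11 ligands, 10 receptors, 5 signalling SMADs, 2 inhibitory SMADs, the 4 Id genes as targets and 6 secreted antagonists. Of these, 34 passed a filter on low counts and were tested. Bmpr1b, Id4, Nog and Chrd did not pass it, and their levels are given without a test. A further 6 members (Bmp6, Nodal, Smad6, Grem1, Lefty1 and Lefty2) passed through libraries of 1 day only, so that their passing already depended on where they were high.

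Ligands of the TGF-beta superfamily bind paired type I and type II serine/threonine kinase receptors. BMP receptors phosphorylate SMAD1 and SMAD5, and TGF-beta, activin and Nodal receptors phosphorylate SMAD2 and SMAD3; both classes enter the nucleus with SMAD4. Nodal and activin signals act in pluripotent cells and in the induction of mesoderm and endoderm. BMP signals act again when cardiac mesoderm is specified, while TGF-beta ligands are known for their part in valve mesenchyme, smooth muscle and matrix.

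Mouse embryonic stem (ES) cells and the cardiac cultures grown from them were profiled by RNA sequencing, to follow the transcriptome of cells that lack Rybp, a component of variant Polycomb repressive complex 1. The groups were wild type and Rybp null mutant cells, both of the strain background 129x1 x 129S1, at day 0 as ES cells kept in serum and leukemia inhibitory factor, and at days 8 and 14 after hanging-drop embryoid body formation. There was 1 library per genotype at day 0 and 2 at each later day. Neither the number of null clones nor whether replicates were separate cultures is given in the labels, so p-values measure the spread between these libraries, which may be technical.

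Library totals ran from 3028153 to 6890792 counts. Replicates differed by more than counting noise, most of all the null day 8 libraries, with a chi-square per gene of 16.7 against 3.48 to 10.1 in the other pairs. Rybp lay at 76.2 CPM (a count scaled to library size) in wild type ES cells and 19.5 to 43.1 CPM later, and at 0.288 to 1.13 CPM in all 5 null libraries, as their labels say. The 7 pluripotency markers summed to 5720 and 10000 CPM at day 0 and to at most 120 CPM later. The 8 cardiomyocyte markers summed to 2060 and 2510 CPM in wild type and to 57.6 and 105 CPM in null cultures at day 8, and to 887 to 1000 CPM against 168 to 244 CPM at day 14, so the labelled cardiac cultures of null cells were low in cardiomyocyte markers. In ES cells these markers summed to 351 CPM in wild type and 146 CPM in null cells, with Ttn at 1033 and 780 counts. The markers were lower to unlike degrees. At day 14 Tnnt2 had 363 and 732 counts in null cultures against 924 and 1245 in wild type. Actc1 had 33 and 8 against 604 and 467. In bulk RNA, fewer cells of a type and less RNA per cell cannot be told apart. On chromosomes 1, 6, 8 and 14 the median log2 difference of null over wild type lay at 0.15 to 0.42 at day 8 and 0.10 to 0.41 at day 14, against at most 0.01 on the other 16 chromosomes. Of the members, 8 lie on 3 of these: Tgfb2, Inhbb, Bmpr2, Lefty1 and Lefty2 on chromosome 1, Smad1 on chromosome 8, and Bmp4 and Bmpr1a on chromosome 14.

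Upstream sequences are shown for members that changed together between day 0 and day 8 and for Bmpr2. RefSeq windows on GRCm38.p6 were found for 26 of the 38 members, in 31 windows, and the 250 bases upstream of the start were searched. Shown are Nodal (chr10:61417722-61417971, plus strand) and Inhbb (chr1:119422249-119422498, minus strand), ligands that were high in ES cells; Bmp5 (chr9:75775115-75775364, plus strand), Tgfb2 (chr1:186705990-186706239, minus strand) and Tgfbr2 (chr9:116175364-116175613, minus strand), which were high afterwards; and Bmpr2 (chr1:59764029-59764278, plus strand), whose null libraries lay above the wild type ones on both later days. Each is written 5′ to 3′ on the strand of the gene and ends at the base before the start. Capitals mark CAGAC or its reverse complement GTCTG, a short SMAD3 and SMAD4 binding motif, and GGCGCC, a GC-rich SMAD motif.
Nodal: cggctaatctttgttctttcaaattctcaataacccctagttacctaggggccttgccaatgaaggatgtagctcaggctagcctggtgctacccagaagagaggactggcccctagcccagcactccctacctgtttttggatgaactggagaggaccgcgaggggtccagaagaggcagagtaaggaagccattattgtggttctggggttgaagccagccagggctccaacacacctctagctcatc
Inhbb: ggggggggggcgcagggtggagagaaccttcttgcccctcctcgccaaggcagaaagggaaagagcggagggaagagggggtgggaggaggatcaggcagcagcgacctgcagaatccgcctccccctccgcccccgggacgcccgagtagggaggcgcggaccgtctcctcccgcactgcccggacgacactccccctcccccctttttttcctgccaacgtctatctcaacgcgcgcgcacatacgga
Bmp5: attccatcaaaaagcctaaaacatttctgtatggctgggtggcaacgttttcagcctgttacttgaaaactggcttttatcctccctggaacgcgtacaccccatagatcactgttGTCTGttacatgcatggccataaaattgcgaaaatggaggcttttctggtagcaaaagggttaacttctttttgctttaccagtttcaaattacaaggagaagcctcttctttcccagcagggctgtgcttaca
Tgfb2: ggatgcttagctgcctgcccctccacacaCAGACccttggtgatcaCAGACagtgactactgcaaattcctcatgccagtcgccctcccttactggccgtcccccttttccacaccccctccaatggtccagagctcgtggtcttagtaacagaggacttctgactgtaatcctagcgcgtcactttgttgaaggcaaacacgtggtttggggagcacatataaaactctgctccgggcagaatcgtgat
Tgfbr2: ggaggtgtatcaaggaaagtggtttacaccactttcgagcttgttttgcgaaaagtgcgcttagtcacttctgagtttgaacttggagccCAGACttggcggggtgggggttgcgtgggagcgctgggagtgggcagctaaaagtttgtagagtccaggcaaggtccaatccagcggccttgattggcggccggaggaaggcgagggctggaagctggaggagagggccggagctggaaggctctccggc
Bmpr2: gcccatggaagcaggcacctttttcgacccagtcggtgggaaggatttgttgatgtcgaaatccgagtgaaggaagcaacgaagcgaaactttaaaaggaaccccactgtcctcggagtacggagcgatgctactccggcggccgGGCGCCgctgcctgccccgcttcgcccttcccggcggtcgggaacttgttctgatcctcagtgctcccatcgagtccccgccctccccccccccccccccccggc
CAGAC occurred 2 times upstream of Tgfb2, 1 time each upstream of Tgfbr2 and Bmp5, and not in the other 3 windows. Bmpr2 held 1 GGCGCC. Over both strands, CAGAC was present in 12 of the 31 member windows (38.7%) against 42.2% of all 32851 windows of the table, and GGCGCC in 8 (25.8%) against 9.6%; the motifs can overlap by a single base. AATCCACA, the motif of FOXH1, a SMAD2 partner in Nodal signalling, was in none of the member windows and in 0.7% of all windows. Windows with a GC content of at least 50% and a CpG observed-over-expected ratio of at least 0.6 made up 22 of the 31 (71.0%) against 31.3% of all. Inhbb, with 21 CpGs in 250 bases, Bmpr2, with 22, and Tgfbr2, with 12, met that definition; Nodal, with 3, Tgfb2, with 8, and Bmp5, with 4, did not. Windows of 1 gene overlap in part, and a match of letters is a description of the sequence only.

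**Figure D1:**
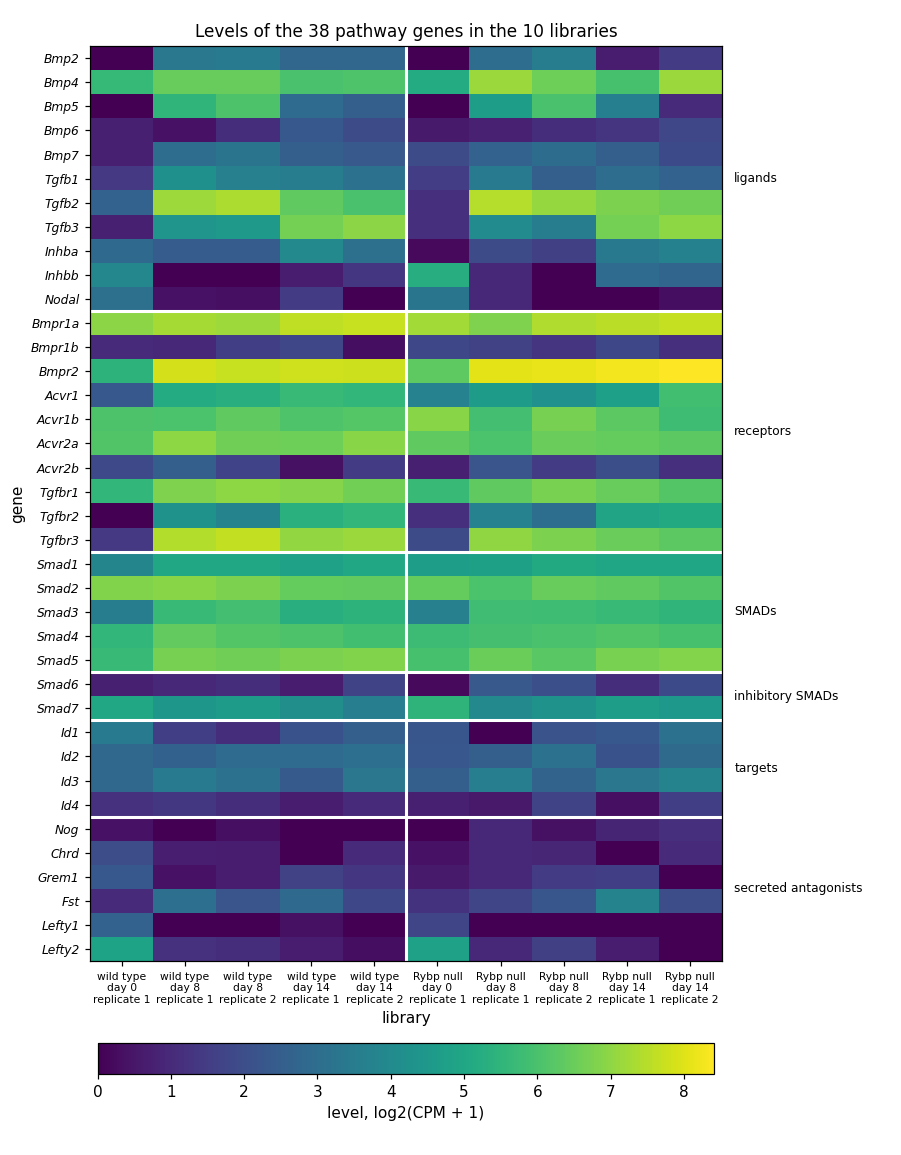
Level of each of the 38 genes (rows, grouped by role) in each of the 10 libraries (columns, wild type left of the white line and Rybp null right), as log2(CPM + 1) from dark to light. The day 0 columns differ from the later ones in both genotypes, Bmpr1a, Acvr1b, Acvr2a and Smad2 are light throughout, and Nog, Chrd and Grem1 are dark throughout.

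Per kilobase of exon, Bmp4 was the most abundant member in wild type ES cells at 21.9 CPM per kb, followed by the receptors Bmpr1a at 19.4 and Acvr1b at 14.9 CPM per kb. At day 8 in wild type cultures the order was Bmp4 at 38.5, Tgfbr3 at 28.6, Tgfb2 at 26.6 and Bmpr1a at 23.7 CPM per kb. At day 14 it was Tgfb3 at 32.9, Bmpr1a at 31.5 and Bmp4 at 29.2 CPM per kb, and in null cultures Bmp4 at 45.0, Tgfb3 at 33.3 and Bmpr1a at 30.9 CPM per kb. In null ES cells the order was Acvr1b at 27.4, Bmpr1a at 23.6 and Bmp4 at 15.7 CPM per kb, and in null cultures at day 8 Bmp4 at 52.1, Tgfb2 at 27.2 and Bmpr1a at 22.1 CPM per kb. Bmp4 and Bmpr1a were among the highest members in each of these groups, and a TGF-beta ligand was after day 0. At day 14 the null Bmp4 libraries were far apart, at 61.1 and 141 CPM, so neighbours in this order are not separated there.

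From ES cells to day 8, ligands and receptors of the TGF-beta branch rose in both genotypes and the Nodal and activin B genes fell. Of 34 tested members, 19 changed in wild type cells (15 higher, 4 lower), which is 55.9% beside 40.5% of all 15819 genes tested (21.2% higher, 19.3% lower). In null cells 18 changed (13 higher, 5 lower), 52.9% beside 37.7% of all genes (19% higher, 18.6% lower). As a group the members had a median log2 fold change of 0.70 in wild type and 0.84 in null cells, against 0.13 and 0.04 over all genes. The lists shared 10 risers, which are 66.7% of the wild type risers and 76.9% of those in null cells, and 4 fallers. The shared fallers were Inhbb, Nodal, Lefty1 and Lefty2. All but Inhbb passed the filter through day 0 libraries only, so their tests depend on where they were high. All tests were edgeR quasi-likelihood tests with Benjamini-Hochberg adjustment, in which the lone day 0 library was assumed to vary like the other groups. DESeq2 called 16 and 13 of the members, beside 5064 of 15646 and 4496 of 16193 genes that had an adjusted p.

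**Figure D2:**
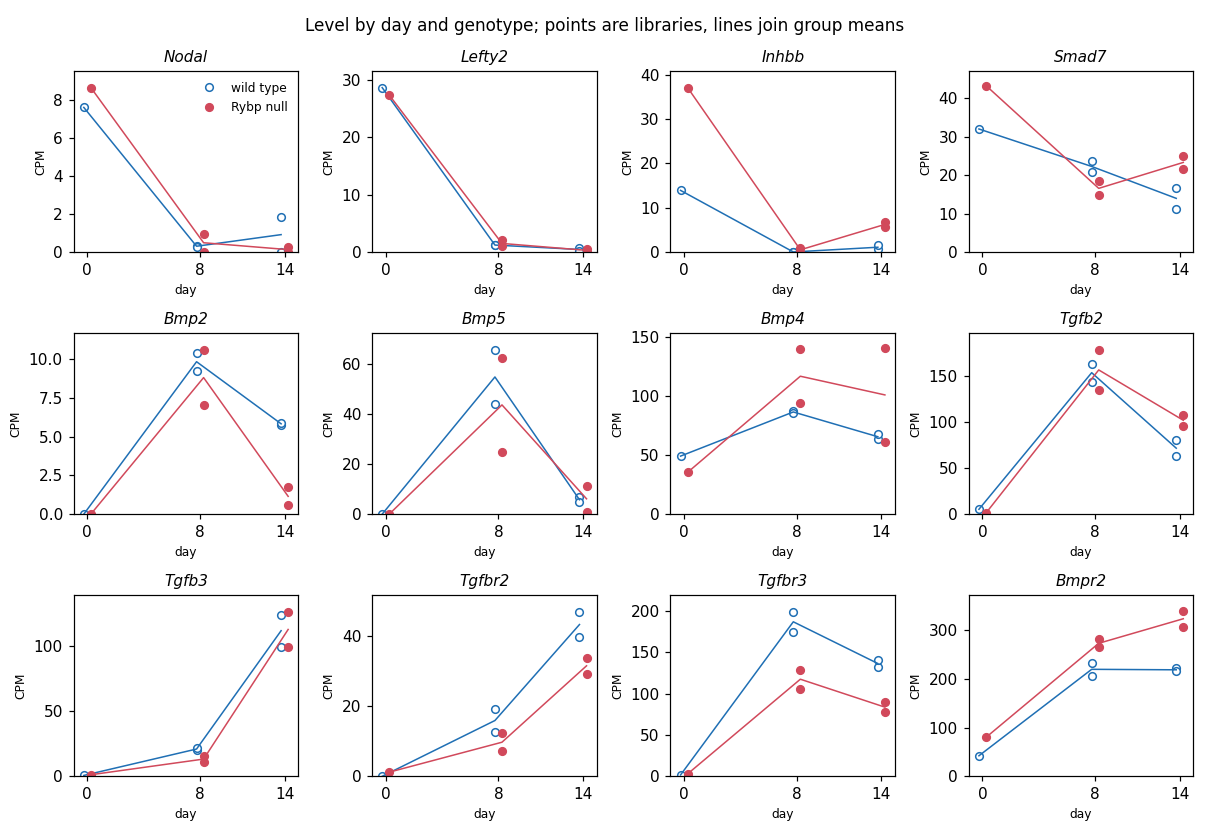
Level in CPM (y axis, own scale per gene) at days 0, 8 and 14 (x axis, days to scale, genotypes set slightly apart) for 12 genes; points are libraries (open wild type, filled Rybp null) and lines join group means. Nodal, Lefty2 and Inhbb start high and drop after day 0, Bmp2 and Bmp5 start at 0 and peak at day 8, and Tgfb3 is highest at day 14 in both genotypes.

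Nodal encodes the ligand that patterns the early embryo and signals in ES cells. It had 7.59 CPM in the wild type and 8.63 CPM in the null day 0 library, 0.319 and 0.282 CPM in wild type and 0.967 and 0 CPM in null cultures at day 8. It was therefore high in ES cells of either genotype and within a few counts of 0 afterwards. Nodal passed the filter through day 0 libraries only, so the tests of its fall depend on where it was high. The fall was 25.3-fold in wild type cells (95% counting interval 6.26 to 222, adjusted p = 0.0187). In null cells it was -3.98 in log2 units (SE 1.19, adjusted p = 0.0192). The wild type call was lost without either wild type day 8 library and with DESeq2, and the null call without null day 8 replicate 2 and with DESeq2, with adjusted p between 0.000334 and 0.0863 and between 0.000258 and 0.0976 over the alternatives.

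Inhbb, the activin B subunit, was at 13.9 CPM in wild type and 37.1 CPM in null ES cells. No count was found in either wild type day 8 library, and the null ones held 0.967 and 0 CPM. The fall was at least 30.8-fold in wild type cells when 3 counts over the group are taken as the floor (adjusted p = 0.000286), and in null cells the log2 fold change came to -6.07 (SE 0.75, adjusted p = 9.42e-05). Inhba, the activin A subunit, behaved otherwise: its CPM were 6.27 in wild type ES cells and 4.47 and 4.51 at day 8, against 0.169 in null ES cells and 2.90 and 2.01 at day 8. Its rise passed in null cells at 14.8-fold (counting interval 2.35 to 613, adjusted p = 0.0138) from a single count at day 0, and was lost with DESeq2 (adjusted p 0.0715, range 0.00826 to 0.0715).

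Bmp2 and Bmp5, BMP ligands expressed in and around the early heart, had no count in the ES cells of either genotype. Bmp2 reached 9.26 and 10.4 CPM in wild type and 7.01 and 10.6 CPM in null cultures at day 8, at least 9.98-fold and at least 17.1-fold higher than the floor (adjusted p = 0.000964 and 0.000397). Bmp5 reached 44.1 and 65.9 CPM in wild type and 25.1 and 62.5 CPM in null cultures, at least 56.3-fold and at least 83.1-fold higher (adjusted p = 0.00657 and 0.00473). The bounds rest on day 0 libraries of unequal depth, and the day 8 levels of the genotypes overlap.

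Bmp4, a ligand needed for mesoderm formation, was already abundant in ES cells. Its levels were 49.2 CPM in wild type ES cells and 87.2 and 86.0 CPM at day 8, and 35.4 CPM in null ES cells and 140 and 93.8 CPM at day 8. All day 8 libraries were above the ES libraries, and the rise passed in null cells (log2 fold change 1.73, SE 0.43, adjusted p = 0.00775) but not in wild type cells. Reads of Bmp4 and of the opposite-strand gene Gm15217 cannot be told apart, since the strand setting of the counting is not given. Bmp7, which often pairs with Bmp2 or Bmp4 in dimers, rose in wild type cells from 0.66 to 7.03 and 8.45 CPM, 11.8-fold (counting interval 3.11 to 100, adjusted p = 0.00638). In null cells it had 2.88 CPM at day 0 and 5.32 and 6.91 CPM at day 8 and did not pass. Bmp6, at 0.319 to 1.15 CPM at days 0 and 8, passed in neither genotype, and its exons overlap those of Txndc5 on the other strand.

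The 3 TGF-beta ligands rose in both genotypes. Tgfb2, the isoform known for its part in endocardial cushion development, went from 5.28 CPM to 144 and 164 CPM in wild type cells and from 1.18 CPM to 179 and 135 CPM in null cells. Its log2 fold changes were 4.86 (SE 0.37, adjusted p = 1.4e-06) and 7.02 (SE 0.42, adjusted p = 3.27e-07). The day 8 levels overlap between genotypes, and the ES levels differ. Tgfb3 had 0.66 CPM in wild type ES cells and 20.1 and 21.7 CPM at day 8, a 31.8-fold rise (counting interval 8.63 to 265, adjusted p = 4.72e-05). In null cells Tgfb3 had 1.18 CPM and then 15.5 and 10.9 CPM (log2 fold change 3.45, SE 0.47, adjusted p = 0.00013). Tgfb1, the most widely expressed isoform, went from 1.65 CPM to 17.6 and 11.8 CPM in wild type cells (log2 fold change 3.13, SE 0.73, adjusted p = 0.00481) and from 1.86 CPM to 10.2 and 4.89 CPM in null cells (2.01, SE 0.65, adjusted p = 0.0282). The null Tgfb1 call was lost without null day 8 replicate 1 and with DESeq2 (adjusted p 0.00762 to 0.153 over the alternatives).

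Among receptors, 5 of 9 tested rose in wild type cells and 4 of 9 in null cells, and none fell. Tgfbr3, the coreceptor betaglycan, was at 1.65 and 2.88 CPM in wild type and null ES cells and reached 175 and 199 CPM in wild type and 129 and 106 CPM in null cultures at day 8. The log2 fold changes were 6.80 (SE 0.40, adjusted p = 2.85e-07) and 5.34 (SE 0.34, adjusted p = 4.37e-07). Tgfbr2, the TGF-beta type II receptor, had no count in wild type ES cells and 19.2 and 12.7 CPM at day 8, at least 15.9-fold higher (adjusted p = 0.000115). In null cells Tgfbr2 went from 1.18 to 12.3 and 7.19 CPM (log2 fold change 3.02, SE 0.57, adjusted p = 0.00132). The type II receptor of the TGF-beta branch was thus near 0 in ES cells of both genotypes.

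Tgfbr1, its type I partner, was present from the start at 46.2 and 51.4 CPM in wild type and null ES cells. It had 110 and 125 CPM in wild type and 81.5 and 104 CPM in null cultures at day 8, with log2 fold changes of 1.35 (SE 0.28, adjusted p = 0.00209) and 0.85 (SE 0.26, adjusted p = 0.023). The latter was lost without null day 8 replicate 2 (adjusted p 0.00947 to 0.0605 over the alternatives). Bmpr2, the BMP type II receptor, went from 42.2 to 233 and 207 CPM in wild type cells (2.38, SE 0.23, adjusted p = 7.31e-06) and from 80 to 265 and 282 CPM in null cells (1.77, SE 0.21, adjusted p = 4.74e-05). Its null ES level was already above the wild type one. Acvr1, the BMP type I receptor ALK2, had 3.96 CPM in wild type ES cells and 35.5 and 38.6 CPM at day 8 (3.22, SE 0.56, adjusted p = 0.000673). In null cells it had 12.2 CPM and then 23.9 and 18.1 CPM and did not pass.

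The other receptors varied less between days. Bmpr1a, the BMP type I receptor ALK3, ranged from 110 to 207 CPM over all 10 libraries, with the ES cells at 123 and 150 CPM inside that range. Acvr1b, the activin and Nodal type I receptor ALK4, was at 66.0 and 121 CPM in wild type and null ES cells and 54.4 to 103 CPM later. Acvr2a, an activin type II receptor, ranged from 64.8 to 127 CPM, and its reads cannot be told apart from those of Orc4 on the other strand. None of these passed from day 0 to day 8 in either genotype. Acvr2b lay at 0.304 to 4.79 CPM and Bmpr1b at 0.255 to 2.54 CPM, where a few counts decide the value.

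Of the 5 signalling SMADs, 4 rose in wild type cells and 1 in null cells. Smad3, the TGF-beta and activin effector, was at 10.9 and 11.8 CPM in wild type and null ES cells, 51.4 and 58.3 CPM in wild type and 56.1 and 55.0 CPM in null cultures at day 8. It rose in both, by log2 fold changes of 2.33 (SE 0.32, adjusted p = 0.000129) and 2.23 (SE 0.30, adjusted p = 0.000124). Smad1, a BMP effector, rose in wild type cells from 13.2 to 31.3 and 31.0 CPM (1.24, SE 0.34, adjusted p = 0.012), a call lost with library scaling per chromosome (adjusted p 0.00696 to 0.0534 over the alternatives). In null cells Smad1 had 25 CPM at day 0 and 26.6 and 33.4 CPM at day 8. Smad5, the other BMP effector tested, rose in wild type cells from 50.5 to 103 and 95.5 CPM (0.98, SE 0.24, adjusted p = 0.00645), with 61.3 CPM and then 91.6 and 75.7 CPM in null cells. The common partner Smad4 had 46.5 CPM and then 82.1 and 71.0 CPM in wild type cells (0.72, SE 0.26, adjusted p = 0.0418), and 53.0 CPM and then 60.2 and 62.7 CPM in null cells. That wild type call was lost without any one of the 4 wild type libraries of days 8 and 14, with DESeq2, with the size factors of DESeq2 and without the low-count filter (adjusted p 0.0258 to 0.171). Smad2, which shares receptors with SMAD3, stayed between 63.8 and 121 CPM in all 10 libraries and passed in neither genotype.

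The inhibitory SMADs, which block receptors and are themselves induced by the pathway, split in null cells. Smad6 passed the filter through the null day 8 libraries only, so the test of its rise depends on where it was high. Smad7 had 43.3 CPM in null ES cells and 14.7 and 18.4 CPM at day 8, a fall by 1.39 on the log2 scale (SE 0.33, adjusted p = 0.00577); in wild type cells it had 32.0 CPM and then 20.8 and 23.7 CPM and did not pass. Smad6 had 0.169 CPM in null ES cells and 4.11 and 3.17 CPM at day 8, 21.7-fold higher from a single count (counting interval 3.59 to 889, adjusted p = 0.026), with 0.66 CPM and then 0.958 and 1.13 CPM in wild type cells. The Smad6 call was lost without null day 8 replicate 1 and with DESeq2 (adjusted p 0.0137 to 0.101).

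The Id genes, direct BMP targets that hold back differentiation by binding helix-loop-helix factors, were low in these libraries. Id1 had 9.90 CPM in wild type and 3.72 CPM in null ES cells, 1.92 and 1.13 CPM in wild type and 0 and 3.45 CPM in null cultures at day 8, and 3.35 to 7.91 CPM at day 14. Id2 ranged from 3.38 to 7.77 CPM, Id3 from 4.26 to 12.6 CPM and Id4 from 0.282 to 2.30 CPM over the 10 libraries. None of the 3 tested Id genes passed in any of the 8 comparisons. For Id1 at day 8, the interval of the null over wild type log2 difference ran from -2.19 to 2.43, which spans changes in either direction.

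Of the secreted antagonists, the Nodal inhibitors Lefty1 and Lefty2 fell in both genotypes. Both passed the filter through day 0 libraries only, so the tests of their fall depend on where they were high. Lefty2 was at 28.7 CPM in wild type and 27.4 CPM in null ES cells, 1.28 and 1.13 CPM in wild type and 0.967 and 2.01 CPM in null cultures at day 8. Its log2 fold changes were -4.54 (SE 0.65, adjusted p = 0.000174) and -4.20 (SE 0.62, adjusted p = 0.000232). Lefty1 was at 5.28 and 2.37 CPM in wild type and null ES cells and had no count in any of the 4 day 8 libraries, lower by at least 11.8-fold and at least 6.01-fold (adjusted p = 0.0173 and 0.0405). Both Lefty1 calls were lost without either day 8 library of the same genotype, the null one also without either wild type day 14 library (adjusted p 0.00159 to 0.0676 and 0.0117 to 0.112). With a replicate block both Lefty1 calls were lost as well. DESeq2 gave Lefty1 no adjusted p and called it in neither genotype. The split of reads between the 2 Lefty genes is uncertain, since 281 of 1571 windows of 50 bases of Lefty1 (17.9%) are also found in Lefty2. The BMP antagonists were close to the detection limit: Nog had 0 to 1.24 CPM, Chrd 0 to 2.97 CPM and Grem1 0 to 3.96 CPM over all libraries. Fst, the activin-binding follistatin, had 0.99 and 1.35 CPM in wild type and null ES cells and 2.42 to 12.7 CPM later, and passed in no comparison.

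**Figure D3:**
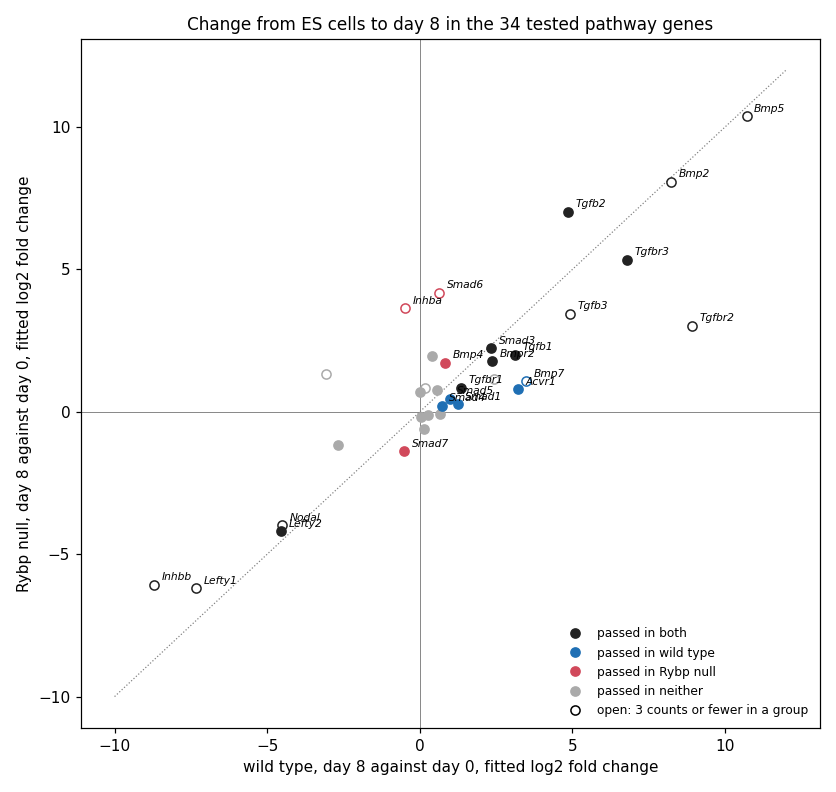
Fitted log2 fold change from day 0 to day 8 in wild type (x axis) and Rybp null cells (y axis) for the 34 tested genes, coloured by where each passed; open circles had 3 counts or fewer in a group, so their position depends on the fit, and the dotted line marks equal change. The 14 genes passing in both genotypes lie in the upper right and lower left quadrants, and no gene passed in opposite directions.

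In all, 28 of the 34 tested members had the same sign of change in both genotypes and 0 passed in opposite directions; the 11 that passed in neither were Bmp6, Bmpr1a, Acvr1b, Acvr2a, Acvr2b, Smad2, Id1, Id2, Id3, Grem1 and Fst. Bmp7, Acvr1, Smad1, Smad4 and Smad5 passed upward in wild type cells and not in null cells. For Bmp4, Inhba and Smad6 (past the filter only through its null day 8 libraries) it was the other way round. The test of that difference was the genotype-by-day interaction from day 0 to day 8. With edgeR it called 0 members, beside 0.0316% of all genes (0.019% higher, 0.0126% lower). With DESeq2 it also called 0 members, beside 86 of the 10719 genes that had an adjusted p. At an unadjusted p under 0.05 the edgeR interaction held 8 members (23.5%, beside 8.88% of all genes). Among them Grem1 passed the filter through the wild type day 0 library only, where it was high. Bmp7, Tgfbr2, Inhba and Grem1 had 3 counts or fewer in a group. Tgfb2 (interaction 2.16, SE 0.60, adjusted p = 0.248), Inhba (adjusted p = 0.266 from 1 null day 0 count) and Acvr1 (-2.43, SE 0.70, adjusted p = 0.266) had the lowest p. The genotypes already differed in these 3 genes at day 0, from 1 library each.

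From day 8 to day 14 the ligand Tgfb3 and the receptor Tgfbr2 rose in both genotypes. In wild type cultures 3 of 34 members passed (8.82%, beside 4.04% of all genes, 2.47% higher and 1.57% lower), with Tgfb3 and Tgfbr2 higher and Tgfb2 lower. In null cultures 5 passed (14.7%, beside 7.69% of all genes, 4.29% higher and 3.41% lower), with Tgfb3, Tgfbr2, Inhba and Inhbb higher and Bmp2 lower. The interaction of genotype and day over these days called 0 members with edgeR, beside 0% of all genes. With DESeq2 it also called 0 members, beside 4 of the 28237 genes that had an adjusted p. At an unadjusted p under 0.05 the edgeR interaction held 2 members, Bmp2 and Smad7 (5.88%, beside 6.08% of all genes).

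Tgfb3 showed the clearest later rise. It went from 20.1 and 21.7 CPM at day 8 to 99.2 and 124 CPM at day 14 in wild type cultures, and from 15.5 and 10.9 CPM to 99.1 and 126 CPM in null cultures. The log2 fold changes were 2.41 (SE 0.25, adjusted p = 0.000445) and 3.08 (SE 0.26, adjusted p = 6.48e-05), and both calls held in all 14 alternatives. Day 14 libraries of both genotypes lay above all day 8 libraries, with genotypes overlapping at day 14. Tgfbr2 reached 39.8 and 47.0 CPM in wild type (1.45, SE 0.32, adjusted p = 0.0258) and 29.3 and 33.9 CPM in null cultures (1.68, SE 0.34, adjusted p = 0.00972). The wild type Tgfbr2 call was lost without any one of the 4 wild type libraries of these days (adjusted p 0.000684 to 0.285), and the null one without null day 14 replicate 2 (5.91e-05 to 0.0523). Both Tgfbr2 calls were also lost with a replicate block. Tgfb2 fell in wild type cultures from 144 and 164 CPM to 80.3 and 63.3 CPM, by 1.10 on the log2 scale (SE 0.21, adjusted p = 0.0103). In null cultures Tgfb2 went from 179 and 135 CPM to 108 and 96.4 CPM and did not pass. The wild type Tgfb2 call was lost without wild type day 8 replicate 1 or 2 or day 14 replicate 2 (adjusted p 3.85e-05 to 0.174).

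Bmp2 and the activin subunits passed in null cultures. Bmp2 had 7.01 and 10.6 CPM at day 8 and 0.563 and 1.73 CPM at day 14, a fall by 2.87 on the log2 scale (SE 0.59, adjusted p = 0.0109), lost without null day 14 replicate 1 (adjusted p 0.00043 to 0.066). In wild type cultures Bmp2 had 9.26 and 10.4 CPM and then 5.78 and 5.87 CPM. Inhbb went from 0.967 and 0 CPM to 6.76 and 5.68 CPM (3.50, SE 0.77, adjusted p = 0.0179), lost without null day 8 replicate 2 (4.9e-05 to 0.0929). This Inhbb call was also lost with a replicate block. Its fold change rests on 4 counts at day 8 and ran from 2.63 to 7.55 on the log2 scale over the alternatives. In wild type cultures Inhbb had no count at day 8 and 0.608 and 1.53 CPM at day 14. Inhba went from 2.90 and 2.01 CPM to 9.57 and 12.1 CPM (2.12, SE 0.50, adjusted p = 0.0217), lost without null day 8 replicate 2, without null day 14 replicate 2 and with DESeq2 (0.00356 to 0.111). This Inhba call was also lost with a replicate block. In wild type cultures Inhba had 4.47 and 4.51 CPM and then 14.6 and 7.66 CPM. Day 14 libraries were above day 8 libraries for Inhba in both genotypes. Bmp5 was at 0.989 to 11.3 CPM in the 4 day 14 libraries, after 25.1 to 65.9 CPM at day 8, and did not pass in either genotype. Summed blood markers were at 728 to 2500 CPM at day 8 and 84.4 to 308 CPM at day 14. Summed smooth muscle and fibroblast markers were at 5160 to 11000 CPM and 11200 to 13200 CPM. Within each list markers moved in opposite directions. In wild type cultures Hba-x fell from 1864 and 2432 counts to 45 and 7. Tyrobp rose from 109 and 89 counts to 305 and 570. Postn fell from 15811 and 15345 counts to 3435 and 2985, and Col1a1 rose from 7358 and 6831 to 14632 and 20197. These markers moved the same way in null cultures. The part of the markers in these changes was not tested.

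No member passed between the genotypes at either day. At day 8, edgeR called 0 of the 34 tested members, beside 1.26% of all genes (0.506% higher, 0.759% lower). With edgeR, 5 members (14.7%) had an unadjusted p under 0.05, beside 13.4% of all genes. DESeq2, run without the low-count filter, called 0 of the 38 members, where a gene without an adjusted p counts as not called. It called 284 of the 13456 genes that had an adjusted p. At day 14 both called 0, beside 0.613% of all genes with edgeR (0.259% higher, 0.354% lower) and 200 of 14551 genes with DESeq2. With edgeR, 6 members (17.6%) had an unadjusted p under 0.05 at day 14, beside 12.9%. The median log2 difference of null over wild type was -0.13 at day 8 and -0.03 at day 14, against 0.01 and -0.01 over all genes; with genes of 0 counts at their bound and those with no fold left out it was -0.16 and -0.02. The 95% interval of the log2 difference lay wholly within 1 unit of 0, that is within 2-fold, for 9 of the 30 members with more than 3 counts in both groups at day 8, and for 14 of 31 at day 14. The median distance from the estimate to an end of its interval was 0.72 and 0.71, so for most members a 2-fold difference was not excluded at this depth and replication.

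**Figure D4:**
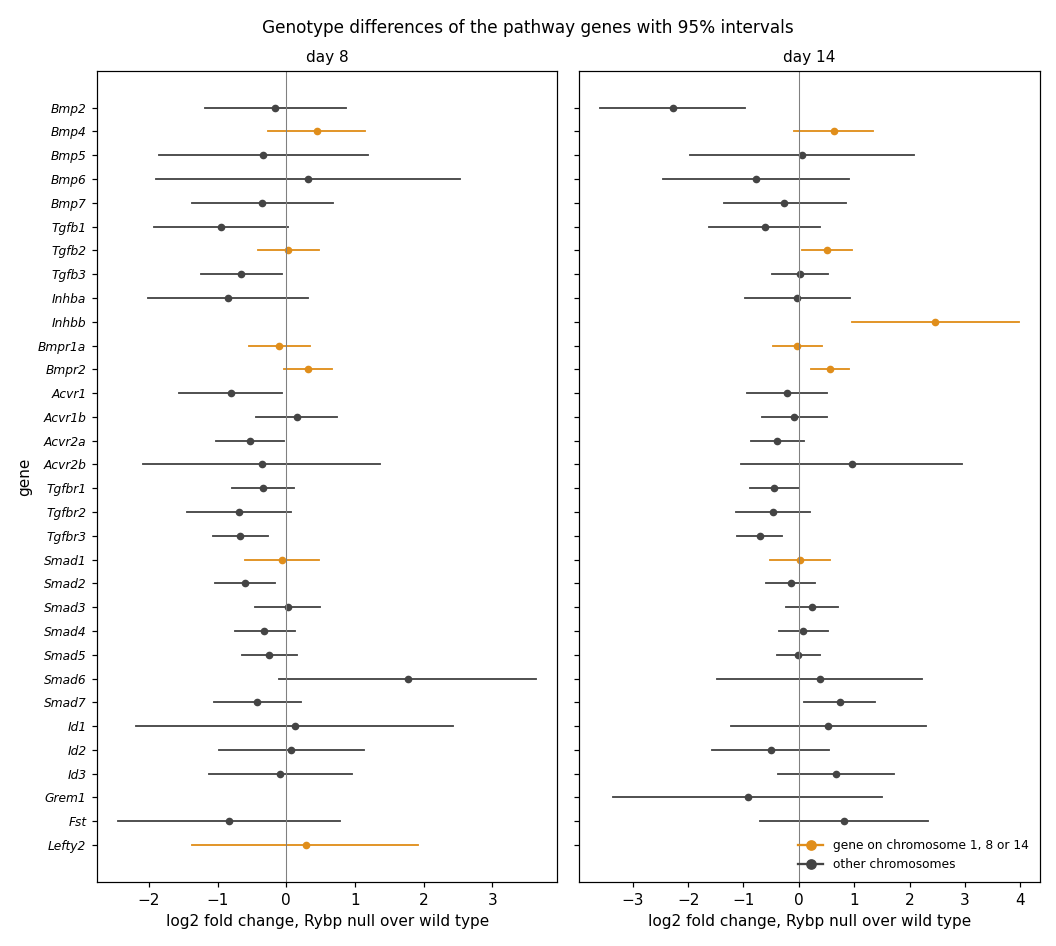
Log2 difference of Rybp null over wild type (x axis) with its 95% interval for each gene with more than 3 counts in both groups (y axis), at day 8 (left) and day 14 (right); orange marks genes on chromosomes 1, 8 and 14. Tgfbr3 lies below 0 and close to the same value at both days, Bmp2 and Inhbb lie farthest from 0 at day 14, and the Id genes and Fst have wide intervals.

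The libraries of the 2 genotypes nevertheless did not overlap for some members. Both null libraries lay below both wild type ones for 13 members at day 8 (38.2%, beside 20.9% of all genes) and for 9 at day 14 (26.5%, beside 22.8%). Both lay above for 4 members at day 8 (11.8%, beside 21.1%) and for 5 at day 14 (14.7%, beside 20.9%). At both days, 6 members were lower (17.6%, beside 7.75% of all genes): Tgfb1, the receptors Acvr2a, Tgfbr1, Tgfbr2 and Tgfbr3, and Smad2. Bmpr2 was higher at both days (1 member, 2.94%, beside 8.52% of all genes).

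Tgfbr3 had 175 and 199 CPM in wild type and 129 and 106 CPM in null cultures at day 8, and 132 and 141 CPM against 89.8 and 77.6 CPM at day 14. The null libraries were lower on both days, by log2 differences of -0.67 (interval -1.07 to -0.27, adjusted p = 0.11) and -0.71 (interval -1.11 to -0.30, adjusted p = 0.12). The day 14 difference passed without the low-count filter, and without either null day 8 library, with adjusted p from 0.0472 to 0.542 over the alternatives. Tgfbr1 and Tgfbr2 differed in the same direction, by -0.34 and -0.69 at day 8 and -0.44 and -0.46 at day 14, with all 4 intervals reaching past 0 (upper ends 0.11, 0.07, 0.01 and 0.21). Tgfb1, the ligand, differed by -0.95 at day 8 (interval -1.92 to 0.03) and -0.62 at day 14 (interval -1.63 to 0.39). The TGF-beta receptors and this ligand were thus on the lower side in null cultures on both days without passing. The summed level of the 4 endothelial markers was also lower in null cultures at day 8, at 249 and 296 CPM against 398 and 418 CPM, with Kdr and Tek lower, Cdh5 higher at 55.1 and 38.3 against 31.6 and 33.5 CPM, and Pecam1 overlapping. The sum of the cardiomyocyte markers was lower as well, and the part of these markers in the differences was not tested.

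At day 8, Acvr1 differed by -0.81 (interval -1.56 to -0.07), Tgfb3 by -0.66 (interval -1.24 to -0.07), Smad2 by -0.60 (interval -1.04 to -0.16) and Acvr2a by -0.53 (interval -1.02 to -0.04), and none passed in any of the 14 alternatives. At day 14 the null libraries of Acvr1, at 25.9 and 57.3 CPM, spanned the wild type values of 50.2 and 46.7 CPM. Tgfb3 differed by 0.02 (interval -0.48 to 0.52) at that day, which excludes a 2-fold difference.

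Bmp2 and Inhbb had the widest day 14 differences among members with unadjusted p under 0.05. Bmp2 had 5.78 and 5.87 CPM in wild type and 0.563 and 1.73 CPM in null cultures, a log2 difference of -2.28 (interval -3.59 to -0.97, adjusted p = 0.12). Inhbb had 0.608 and 1.53 CPM in wild type and 6.76 and 5.68 CPM in null cultures, 2.46 (interval 0.96 to 3.97, adjusted p = 0.14). Neither pair of groups overlapped. Without the low-count filter both passed (adjusted p 0.0371 for Bmp2, range 0.0371 to 0.475; 0.00856 for Inhbb, range 0.00856 to 0.501). Inhbb also passed with a replicate block (2.47, adjusted p = 0.0485). The Inhbb value was 2.08 with libraries scaled per chromosome.

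Bmpr2 had 233 and 207 CPM in wild type and 265 and 282 CPM in null cultures at day 8, and 222 and 216 CPM against 308 and 340 CPM at day 14. The null libraries were higher at both days, by 0.31 (interval -0.03 to 0.66) and 0.56 (interval 0.22 to 0.91). Bmpr2 lies on chromosome 1, whose median difference was 0.42 at day 8 and 0.41 at day 14, and with a scaling factor per chromosome its difference was -0.08 and 0.18. Tgfb2, on the same chromosome, had 80.3 and 63.3 CPM in wild type and 108 and 96.4 CPM in null cultures at day 14, a difference of 0.51 (interval 0.06 to 0.96), or 0.12 with that scaling. Both genes differed less between genotypes with that scaling. Smad7 had 16.7 and 11.2 CPM in wild type and 25.1 and 21.5 CPM in null cultures at day 14 (0.74, interval 0.10 to 1.38), after 20.8 and 23.7 CPM against 14.7 and 18.4 CPM at day 8 (-0.43, interval -1.06 to 0.21).

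In ES cells, where there is no replicate and no test, 6 of the 22 members with at least 5 CPM in either library (27.3%) differed by 2-fold or more. Across all 10865 genes at that level 11.8% did, 7.48% higher and 4.33% lower in null cells. Of the 6 members, only Inhbb had at least 5 CPM in both libraries. The others were counted through the library where they were high, so the share of members depends in part on that. Inhbb was higher in null cells, at 37.1 against 13.9 CPM, 2.67-fold (95% counting interval 1.92 to 3.82), as was Acvr1, at 12.2 against 3.96 CPM, 3.08-fold (1.66 to 6.23). Higher in wild type cells were Inhba, at 6.27 against 0.169 CPM from a single null count, 37.0-fold (5.89 to 1540), and Tgfb2, at 5.28 against 1.18 CPM, 4.46-fold (1.73 to 12.8). Id1, at 9.90 against 3.72 CPM, was 2.66-fold higher (1.48 to 4.84), and Lefty1, at 5.28 against 2.37 CPM, 2.23-fold (1.02 to 4.93). The activin subunits thus stood on opposite sides. Inhbb lies on 1 of the 4 chromosomes whose median log2 ratio was 0.26 to 0.53 at day 0, and the part of this in its level was not tested. The ligand Nodal, at 7.59 and 8.63 CPM, and Lefty2, at 28.7 and 27.4 CPM, were close in these 2 libraries. The intervals cover counting error only.

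A further 70 genes of the pathway were in the count table, of which 46 were tested. From day 0 to day 8, 17 rose and 6 fell in wild type cells (50%, beside 40.5% of all genes) and 23 rose and 5 fell in null cells (60.9%, beside 37.7%), with a median log2 fold change of 1.69 and 1.80; with genes of 0 counts at their bound and those with no fold left out it was 1.16 and 1.64. Tdgf1, the Nodal coreceptor Cripto, and Gdf3, a Nodal-related ligand, fell most, by log2 fold changes of -5.18 (SE 0.47) and -5.31 (SE 0.56) in wild type cells and -7.68 (SE 0.53) and -5.71 (SE 0.60) in null cells. Bmp8b, 28.6-fold lower from 13 counts to 1 (counting interval 4.30 to 1220), followed in wild type cells, a call lost with DESeq2 and without wild type day 8 replicate 1 or 2 or day 14 replicate 1 (adjusted p 0.00418 to 0.165), and Tgif1, a SMAD corepressor, in null cells (-3.50, SE 0.22). Dcn, the TGF-beta-binding proteoglycan decorin, rose from no count to 38 and 30.4 CPM in wild type and 43.5 and 29.6 CPM in null cultures, at least 34.3-fold and at least 73.2-fold. Msx1, a BMP target, and Acvrl1, the endothelial type I receptor ALK1, rose in wild type cells, by at least 3.48-fold and 3.03-fold. Msx1 was lost with DESeq2 and without wild type day 8 replicate 2 (adjusted p 0.0165 to 0.122), and Acvrl1 with DESeq2 (0.0104 to 0.0542). The wild type Msx1 call was also lost with a replicate block. Msx1 and Acvrl1 rose in null cells as well, Msx1 by at least 8.28-fold and Acvrl1 by 2.69 in log2 units (SE 0.80). The ligand Gdf6 rose in null cells by at least 34.7-fold and in wild type cells by 63.1-fold from a single count (counting interval 11.1 to 2510), with day 8 levels of 17.9 and 17.3 CPM and of 26.5 and 15.8 CPM that overlap. Tdgf1 and Gdf3 thus fell in both genotypes, as did the members Nodal, Lefty1 and Lefty2 in the same libraries. Gdf3 passed the filter through day 0 libraries only and Msx1 through day 8 libraries only, so their tests depend on where they were high.

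From day 8 to day 14, 7 of the 46 rose and 2 fell in wild type cultures (19.6%, beside 4.04% of all genes), and 8 rose and 1 fell in null cultures (19.6%, beside 7.69%). Dcn (3.49, SE 0.22 in wild type; 3.92, SE 0.22 in null cultures) and the latent TGF-beta binding protein Ltbp4 (3.59, SE 0.36; 3.32, SE 0.37) rose in both. Ltbp3 (2.65, SE 0.48) was next in wild type cultures, a call lost without either day 8 library or day 14 replicate 2 of that genotype (adjusted p 1.07e-08 to 0.111), and the protease Htra1 (3.03, SE 0.35) in null cultures. Tdgf1 passed downward in wild type cultures (-2.29, SE 0.54, adjusted p = 0.0475), but the call was lost in 9 of 14 alternatives, among them DESeq2 and leaving out any 1 of the 4 wild type libraries of these days or either null day 8 library (adjusted p 1.92e-09 to 0.271). Between genotypes 0 of these 46 passed with edgeR at day 8, day 14 or in either interaction, with 12, 6, 8 and 5 at an unadjusted p under 0.05 at day 8, day 14, over days 0 to 8 and over days 8 to 14. These are 26.1%, 13.0%, 17.4% and 10.9% of them, beside 13.4%, 12.9%, 8.88% and 6.08% of all genes. DESeq2 called 2, 1, 1 and 0 of the 46. It called 284 of 13456, 200 of 14551, 86 of 10719 and 4 of 28237 genes that had an adjusted p. The pathway genes it called were Fstl1 (-0.64, adjusted p = 0.00614) and Ltbp1 (-0.74, adjusted p = 0.0243) at day 8 and Ltbp1 (-0.84, adjusted p = 0.00796) at day 14. Zeb2 (2.69, adjusted p = 0.0325) was called in the earlier interaction. They were named after their values were seen.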

How the data were processed

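The authors deposited raw counts, whole numbers per Ensembl gene with no normalization. Total RNA was made into NuGEN libraries, per the labels' protocols. The submitters' processing notes name TopHat, HTSeq, DESeq and mm9; versions, annotation release and strand setting: not given in the sources used here. Symbols were matched to 30946 of 36191 IDs. The members and lists were chosen with earlier results of these data known.

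Counts were tested with edgeR 4.0.16 in R 4.3.3: filterByExpr with a minimum count of 10 kept 15819 genes, TMM set the library scaling, and a robust quasi-likelihood model with 6 genotype-by-day groups left 4 residual degrees of freedom. Each comparison was adjusted by Benjamini-Hochberg over all genes tested, two-sided, and called at an adjusted p under 0.05; every adjusted p comes from this test unless DESeq2 (1.42.0) is named. The SE is the size of the log2 fold change divided by root F and restates the unadjusted p. CPM use TMM-scaled library sizes. A group with 0 counts gives a bound against 3 counts over the group; with 1 to 3 counts, the ratio has a 95% counting interval. At day 0 genes with at least 5 CPM were counted at 2-fold with a prior count of 2. These intervals cover counting error only, and at 3028153 to 6890792 counts per library a gene under a few CPM is imprecise.

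Every member is accounted for. Values are given for members called in any of 8 comparisons, with a group mean of at least 50 CPM, 2-fold apart at day 0, or listed as key ligands, targets and antagonists; of the other pathway genes, the 3 largest changes called in each direction are named, except some that are not reported here. The alternatives were DESeq2, its size factors, no filter, a replicate block, a scaling factor per chromosome, days 8 and 14 only, and leaving out each library. Exon lengths and overlaps came from GENCODE vM21. The fitting scripts were tested on simulated data.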

Additional observations from a re-analysis of the deposited data

How the results depend on the processing

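Of 66 gene values called in the report, 43 stayed called in every alternative tried, and none of the 66 changed sign. Without the low-count filter 3 members passed between genotypes at day 14 (Bmp2, Inhbb and Tgfbr3), 5 from day 8 to 14 in wild type and 1 (Acvr1) in the interaction from day 0 to 8, and of the other pathway genes 4 at day 8, 2 at day 14, 16 from day 8 to 14 in null cultures and 2 in that interaction. DESeq2 called 2, 1 and 1 of the other pathway genes at day 8, at day 14 and in that interaction, and its size factors 1 at day 8. The labels do not say whether the replicate numbers pair the samples. Correlations of deviations were 0.124 at day 8 and 0.222 at day 14 over 7045 genes, and with only 2 pairs a day they cannot decide it. With the replicate block 1 member passed at day 14 (Inhbb) and 2 from day 8 to 14 in null cultures. Of the other pathway genes 2 passed at day 8, 2 at day 14 and 1 in the interaction from day 0 to 8. Over all genes the block moved the genotype calls from 200 to 423 at day 8 and from 97 to 348 at day 14. The block also lost 8 of the 66 calls: Lefty1 from day 0 to 8 and Tgfbr2 from day 8 to 14 in both genotypes, Inhba and Inhbb from day 8 to 14 in null cultures, Msx1 from day 0 to 8 and Tdgf1 from day 8 to 14 in wild type. Leaving out single libraries gave 0 to 1 members at day 14, 1 to 4 from day 8 to 14 in wild type (1 without either day 8 library or day 14 replicate 2) and 3 to 6 in null cultures (3 without day 14 replicate 2). For the other pathway genes it gave 0 to 2 at day 8, 0 to 1 at day 14, 2 to 9 from day 8 to 14 in wild type (2 to 4 without any 1 of its 4 libraries), 5 to 13 in null cultures (5 without day 14 replicate 2) and 0 to 1 in the interaction from day 0 to 8. With a scaling factor per chromosome the Bmpr2 difference at day 8 changed sign to -0.08. The cause was not tested for any of these. Over all genes, the count between genotypes at day 8 was 200, with 28 without wild type day 8 replicate 1 and 708 without the low-count filter, so a count of 0 members rests on a threshold that moves with these choices. Counts of a few reads limit Nodal, Lefty1, Smad6, Grem1, Id4, Nog and Chrd.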
